A study of Mus musculus with 57 samples.

Results

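The comparison runs across all genes, between cells of a mouse ESC line before differentiation and after 2 days of it, in the gate that is negative for both reporters of the line. The line, Sox1-EGFP/FoxA2mCherry, reports Sox1 with EGFP and FOXA2 with mCherry, and the double-negative gate is written Sox1-FOXA2-. At D0 the cells were in SerumLIF, which is serum with leukemia inhibitory factor (LIF). At D2 they had spent 2 days in N2B27, a serum-free medium, with 1 uM retinoic acid (RA). The samples were chosen by day and gate: 6 of the 57 bulk RNA-seq samples of the series, 3 biological replicates at D0 and 3 at D2, each of about 500 sorted cells. The other 3 D2 populations (Sox1+FOXA2-, Sox1-FOXA2+ and Sox1+FOXA2+), 9 samples, entered the same fit and serve a second comparison. Loss of serum, loss of LIF, a change of basal medium and supplements, addition of RA and 2 days in culture came together. Their effects cannot be told apart.

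LIF sustains ESCs through STAT3, which helps keep a network of naive pluripotency factors such as Nanog, Esrrb and Klf4 expressed. When LIF is withdrawn the network is taken down, and cells normally pass through a formative state marked by Otx2, Pou3f1 and Fgf5 before they commit to a lineage. RA is bound in the nucleus by receptors of the RAR and RXR families, which sit on repeated half-sites in DNA, and it is known to induce the enzymes that break it down and the Hox genes at the 3' ends of their clusters.

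Levels are given as normalized counts, which are raw counts per gene divided by DESeq2 size factors over all 57 libraries, in the order of replicates 1, 2 and 3. The libraries held 27564704, 50662302 and 20391512 counts on genes at D0 and 45549677, 50407863 and 35464525 at D2. Genes with at least 1 count numbered 16669, 18547 and 17400 at D0 and 22307, 19471 and 19225 at D2 (exact permutation test, two-sided, p = 0.1, the smallest that 3 against 3 allow). Log2 fold changes are D2 minus D0, from edgeR's quasi-likelihood fit, with ± 1 SE from 3 libraries a group. A gene is called when its two-sided p, adjusted over all genes tested by the method of Benjamini and Hochberg, is under 0.05. Genes that lie inside another gene, on either strand, stand at 0 in every library. Sox1 and Sox2 are among them, so neither could be measured. Foxa2, the other gene of the gate, had 4.98, 0 and 0 normalized counts at D0 and 107, 0 and 0 at D2.

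The D0 libraries did not form a uniform group. D0 replicate 2 stood apart in pluripotency state. Klf4, a naive factor, had 10972, 1622 and 5767 at D0 and 1072, 4202 and 3258 at D2. Fgf5, a formative marker, had 22.4, 4201 and 0 at D0 and 20.4, 0 and 1.85 at D2. Socs3, a STAT3 target, had 3589, 0 and 2361 at D0. D0 replicate 2 was thus lowest of its group in Klf4 and Socs3 and held nearly all of the Fgf5 counts. At D2 the 7 stem cell markers (Pou5f1, Sox2, Nanog, Esrrb, Zfp42, Dppa5a and Tdgf1) summed to 13023, 36866 and 31622, lowest in replicate 1, against 92527, 43738 and 91868 at D0. Zfp42 had the highest mean of them on both days, but Tdgf1 was highest in D0 replicate 2 and Dppa5a in D2 replicates 1 and 2, and Sox2 alone was at 0. Across the 21037 genes tested, log2 normalized counts correlated at 0.795 to 0.819 between D0 libraries, at 0.843 to 0.865 between D2 libraries and at 0.780 to 0.809 between the days (Pearson's r across genes, which are not independent replicates). Where leaving out D0 replicate 2 clearly shifted the median of a gene list, the median without it is given too.

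Between D0 and D2, the genes called higher in Sox1-FOXA2- cells included some of RA breakdown and response, of the Hox clusters and of fatty acid synthesis, and those called lower included Mycn, Tet1 and some enzymes of glycolysis. In all, 461 of 21037 genes tested were called, 248 higher and 213 lower at D2. They make up 2.19% of the genes tested, 1.18% higher and 1.01% lower. An unadjusted p under 0.05 was seen for 3038 of the 21037, against which such counts in the lists below are to be read. Each of the called genes had no overlap between the 3 D0 and the 3 D2 libraries, as had 24.3% of all genes tested (2904 higher and 2211 lower at D2). The median log2 fold change of all genes tested was 0.11. A positive value was seen for 11284 of the 21037, against which the sign counts of the lists below are to be read. Without D0 replicate 2, 476 genes or 2.07% were called, 318 higher and 158 lower, of which 302 were also called with it, and the median of all genes was 0.28. DESeq2's Wald test called 1744, and a fit of all 39 sorted libraries called 120. Calls numbered 235 without D0 replicate 1, 316 without D0 replicate 3, 110 without D2 replicate 1, 283 without D2 replicate 2 and 159 without D2 replicate 3. Where calls of genes named below ended under an alternative (1 of the 15 libraries left out, RLE size factors, no filter on low counts, or fits of all 57, the 39 sorted or only the 6 compared libraries), this is given by gene with the adjusted p or, for lists and rankings with many calls, as the number of calls that ended.

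Genes of retinoid uptake, synthesis and breakdown had 5 of 14 tested genes called higher and 0 called lower, with a median of 2.13. Members at or near 0 at D0, such as Cyp26a1, could pass the filter on low counts through the D2 libraries. This median and these counts thus do not test the list. Of the uptake genes, Stra6, the membrane receptor for retinol, had 1.24, 223 and 2.07 at D0 and 2689, 1594 and 1244 at D2 (log2 fold change 4.51 ± 1.14, adjusted p = 0.0432). Its lowest D2 library exceeded its highest D0 library. Crabp2, which delivers RA to its receptors, had 595, 363 and 504 at D0 and 3936, 1528 and 506 at D2 (log2 fold change 2.05 ± 0.56, adjusted p = 0.0653), with D2 replicate 3 inside the D0 range. Of the synthesis enzymes, Aldh1a1, Aldh1a2 and Aldh1a3 had at most 412 normalized counts in a library and were not called. Of the enzymes that remove retinoids, Dhrs3, which turns retinaldehyde back into retinol, had 52.3, 0 and 0 at D0 and 2374, 1862 and 573 at D2 (log2 fold change 6.53 ± 1.14, adjusted p = 0.00447). Cyp26a1 (ENSMUSG00000024987.6, chromosome 19, 37697798 to 37701536, GRCm38), a cytochrome P450 that breaks down RA, had 0, 0 and 16.5 normalized counts in the D0 libraries and 3671, 4581 and 1316 in the D2 libraries. It was at or close to 0 in each D0 library and above 1000 in each D2 library (log2 fold change 9.81 ± 1.02, adjusted p = 3.7e-05). Cyp26b1, a second such enzyme, had 0, 0 and 0 at D0 and 1265, 309.9 and 163 at D2, which against a floor of 3 raw counts over the D0 group was at least 574-fold higher (adjusted p = 1.5e-04). Such bounds, and the ratios given for genes with few counts at D0, divide the raw counts summed over a day by its summed size factors, so deeper libraries weigh more than in a mean of normalized counts. Cyp26c1, the third, had 0, 0 and 0 at D0 and 226, 137 and 94.3 at D2, without overlap and without a call (adjusted p = 0.111). The call of Stra6 ended without D0 replicate 1 or 3 or D2 replicate 1, 2 or 3 and in the fits of 39 and 6 libraries (adjusted p 0.0519 to 0.112). The call of Dhrs3 ended in the fit of 6 libraries (adjusted p = 0.0541).

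Retinoid receptors and response genes had 7 of 22 tested genes called higher and 0 called lower, with a median of 2.22, and 11 were higher at D2 without overlap, as were 2904 of all 21037 genes tested. Hox genes of this list, such as Hoxb1, are also in the list of Hox genes, and their calls count in both. Members so low at D0 could pass the filter on low counts through the D2 libraries, so these values do not test the list. Without D0 replicate 2 the calls were 9 higher and 0 lower with a median of 3.19. Of the receptors, Rara had 2996, 2468 and 3749.6 at D0 and 1358, 1646 and 1742 at D2 (log2 fold change -0.92 ± 0.32, adjusted p = 0.175), lower in each D2 library but not called. Rarb (ENSMUSG00000017491.9, chromosome 14, 16430839 to 16819156, GRCm38), itself an RA target, had 2.49, 177 and 124 normalized counts in the D0 libraries and 3725, 781 and 1998 in the D2 libraries. The groups stood apart, with D2 replicate 2 the lowest of the D2 libraries (log2 fold change 4.42 ± 0.86, adjusted p = 0.00985). Its level may be undercounted, since 38.4% of its exon bases lie inside another gene. Rxra, a partner receptor, had 1081, 832 and 492 at D0 and 2370.2, 4523 and 1889 at D2 (log2 fold change 1.88 ± 0.51, adjusted p = 0.0639), without overlap and not called. Of the targets, Stra8 (ENSMUSG00000029848.11, chromosome 6, 34920163 to 34939344, GRCm38), known for its induction by RA in germ cells, had 1294, 92.3 and 1112 normalized counts in the D0 libraries and 46427, 36299.7 and 33497 in the D2 libraries. Its lowest D2 value was far above its highest D0 value (log2 fold change 5.59 ± 0.63, adjusted p = 8.3e-05). Meis1, a homeodomain partner of HOX proteins, had 27.4, 178 and 384 at D0 and 4838, 1528 and 1441 at D2 (log2 fold change 3.79 ± 0.73, adjusted p = 0.00840). Meis2, its paralog, had 19.9, 324 and 521 at D0 and 11108, 2828 and 2443 at D2 (log2 fold change 4.29 ± 0.86, adjusted p = 0.0119). For both, D2 replicate 1 was the highest library. Nrip1, a co-repressor of nuclear receptors, had 1354, 1305 and 219 at D0 and 8638, 4128 and 3103 at D2 (log2 fold change 2.45 ± 0.55, adjusted p = 0.0236). The call of Rarb ended in the fit of 6 libraries (adjusted p = 0.0631). The call of Meis1 ended in the fit of 6 libraries (adjusted p = 0.0508). The call of Meis2 ended without D2 replicate 1 and in the fit of 6 libraries (adjusted p = 0.0549 and 0.0536). The call of Nrip1 ended without D2 replicate 1 and in the fit of 6 libraries (adjusted p = 0.130 and 0.0737).

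Of 39 Hox genes, 12 lie inside another gene and 17 were tested, with 6 called higher and 0 lower. Their median log2 fold change was 7.99 (8.68 without D0 replicate 2), or 5.72 with genes at 0 at D0 set to their bound, and 13 were higher at D2 without overlap, as were 2904 of all 21037 genes tested. The list summed to 177, 171 and 74 at D0 and 9566, 5615 and 3533 at D2. Genes so low at D0 could pass the filter on low counts through the D2 libraries. The median and these counts thus describe Hox genes counted at D2 and do not test the list. Hoxb1, at the 3' end of the B cluster, had 49.8, 0.659 and 0 at D0 and 2877, 1793 and 316 at D2 (log2 fold change 6.62 ± 1.17, adjusted p = 0.00529), with D2 replicate 3 the lowest of its group. Its highest D0 library stayed below its lowest D2 library. Further toward the 5' end of the B cluster, Hoxb7 had 0, 0 and 0 at D0 and 344, 216 and 248 at D2, at least 252-fold higher over the group (adjusted p = 0.00411). Hoxb8 had 0, 0 and 41.3 at D0 and 800.5, 498 and 475 at D2 (log2 fold change 5.72 ± 1.15, adjusted p = 0.0119). Hoxb9 had 0, 0 and 4.13 at D0 and 1076, 859 and 261 at D2; with 2 raw counts at D0 in all, the ratio of D2 to D0, from summed raw counts over summed size factors, was 1092 (95% counting interval 302 to 9024, adjusted p = 1.6e-04). In the C cluster, Hoxc4 had 0, 0 and 0 at D0 and 291, 43.9 and 42.5 at D2, at least 124-fold higher over the group (adjusted p = 0.0420). Such bounds and intervals cover counting error only. The call of Hoxb1 ended in the fits of 57, 39 and 6 libraries (adjusted p 0.0519 to 0.0574). The call of Hoxb8 ended in the fits of 57, 39 and 6 libraries (adjusted p 0.0992 to 0.174). The call of Hoxc4 ended without D0 replicate 1, 2 or 3, D2 replicate 1 or 3, D2 Sox1+FOXA2- replicate 2 or D2 Sox1+FOXA2+ replicate 1 and in the fit of 6 libraries (adjusted p 0.0515 to 0.138).

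**Figure D1:**
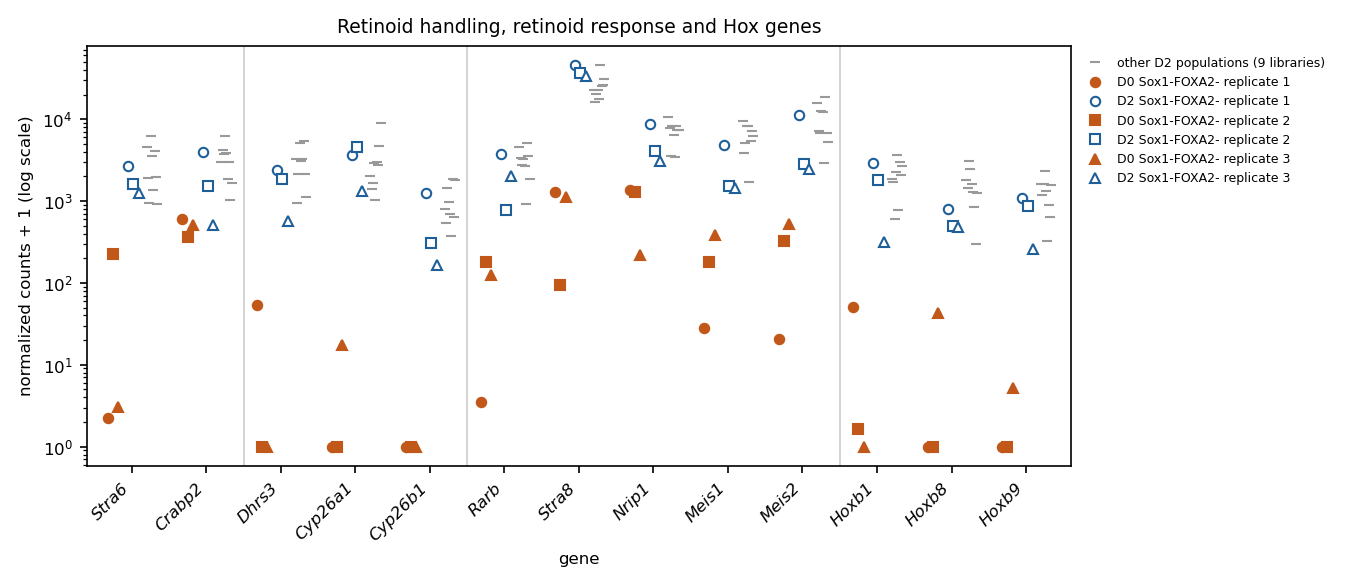
Normalized counts plus 1 (log axis) of genes of retinoid uptake (Stra6 to Crabp2), retinoid breakdown and reduction (Dhrs3 to Cyp26b1), retinoid response (Rarb to Meis2) and the Hox clusters in each D0 (filled) and D2 (open) Sox1-FOXA2- library and in the 9 libraries of the other D2 populations (grey dashes). Every gene shown but Crabp2 has its 3 D2 libraries above its 3 D0 libraries.

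Promoter sequences from RefSeq (GRCm38.p6), windows of 300 bases around annotated starts, were searched for the direct repeat that RA receptors are known to bind, as 2 cores, each GTTCA or GGTCA, with 6 bases between them, on both strands. Some genes have more than 1 window, with 32851 windows for 27025 genes. Such a repeat stood in 81 of 32851 windows, or 0.247%. It stood in 2 of 237 windows of genes called higher and in 1 of 205 of genes called lower at D2. Of 17 windows of genes of retinoid uptake, synthesis and breakdown, 1 held it (Cyp26a1), as did 1 of 26 of retinoid receptors and response genes (Rarb) and 0 of 24 of Hox genes. The stretches of Rarb (chr14:16575493-16575548, minus strand) and Cyp26a1 (chr19:37697756-37697811, plus strand, where the repeat runs on the opposite strand) are printed because both genes rose, with the cores in capitals. The Rarb stretch lies inside the span given above for the gene and not at its 5' end. A match describes the letters and not the binding of a receptor.
Rarb: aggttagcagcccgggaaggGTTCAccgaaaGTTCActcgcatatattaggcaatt
Cyp26a1: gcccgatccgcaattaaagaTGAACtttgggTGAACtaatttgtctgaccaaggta

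Among naive pluripotency factors, calls numbered 0 of 20 by edgeR (4 at an unadjusted p under 0.05, 2 by DESeq2). Of all 21037 genes tested, 3038 were at that p. Their median log2 fold change was -1.10 (-1.37 without D0 replicate 2), and 18 of the 20 had a negative value. Nanog (ENSMUSG00000012396.12, chromosome 6, 122707489 to 122714633, GRCm38), a homeodomain factor of the naive network, had 10484, 5448 and 12562 normalized counts in the D0 libraries and 1448, 7024 and 4727 in the D2 libraries. D2 replicates 2 and 3 lay on either side of the lowest D0 value, that of replicate 2, so the groups overlapped (log2 fold change -1.06 ± 1.17, adjusted p = 0.784). Zfp42, a zinc finger gene long used as an ESC marker, had 26002, 8468 and 24209 at D0 and 4117, 9726 and 11843 at D2 (log2 fold change -1.15 ± 0.65, adjusted p = 0.417). Esrrb, an orphan nuclear receptor, had 14274, 2947 and 12328 at D0 and 1490.2, 5627 and 5699.7 at D2 (log2 fold change -1.16 ± 0.78, adjusted p = 0.529). In each of these genes D0 replicates 1 and 3 stood above every D2 library and D0 replicate 2 did not. Groups without overlap were seen for 5 of the 20 (Tcl1, Tdh, Dppa3, Nr0b1 and Klf2), all lower at D2. Of all genes tested 24.3% had no overlap, with 2211 of the 21037 lower at D2. Tdh, a threonine dehydrogenase of ESCs, had 2679, 1109 and 4105 at D0 and 51.6, 314 and 116 at D2 (log2 fold change -3.97 ± 1.32, adjusted p = 0.147). Without D0 replicate 2 the calls were 0 higher and 1 lower with a median of -1.37. The gene called was then Mybl2, at -1.54 (adjusted p = 0.0467). In bulk samples, fewer cells of a type and less RNA per cell cannot be told apart.

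Core pluripotency factors had 0 of 14 tested genes called higher and 2 called lower, with a median of -0.92, and none of the 14 had a positive log2 fold change. Mycn (ENSMUSG00000037169.15, chromosome 12, 12936093 to 12941914, GRCm38), a growth-promoting transcription factor, had 7822, 10462 and 7694 normalized counts in the D0 libraries and 289, 865 and 604 in the D2 libraries. All 3 D0 libraries stood far above all 3 D2 libraries (log2 fold change -3.86 ± 0.48, adjusted p = 1.8e-04). Sall4, a zinc finger factor of the OCT4 network, had 17372, 18657 and 16046 at D0 and 9268, 11421 and 7422 at D2 (log2 fold change -0.87 ± 0.22, adjusted p = 0.0391), also without overlap. Pou5f1, the gene of OCT4, had 5923, 4882 and 5724 at D0 and 649.6, 1554 and 1201 at D2 (log2 fold change -2.25 ± 0.94, adjusted p = 0.286). Its groups did not overlap, but it was not called; 31.2% of its exon bases lie inside another gene. Tdgf1, a Nodal co-receptor, had 23420, 13340.3 and 19128 at D0 and 443, 3019 and 2063 at D2 (log2 fold change -3.30 ± 1.37, adjusted p = 0.283). L1td1, an RNA-binding protein gene of pluripotent cells, had 41029, 36825 and 42222 at D0 and 5423, 10489.6 and 12133 at D2 (log2 fold change -2.07 ± 0.59, adjusted p = 0.0781). Both were without overlap and neither was called. The call of Sall4 ended without D0 replicate 1, 2 or 3, D2 replicate 1 or 3, D2 Sox1+FOXA2- replicate 2, D2 Sox1-FOXA2+ replicate 1 or 3 or D2 Sox1+FOXA2+ replicate 1 and in the fits of 57, 39 and 6 libraries (adjusted p 0.0514 to 0.511). Without D0 replicate 2 the calls were 0 higher and 1 lower with a median of -0.74.

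**Figure D2:**
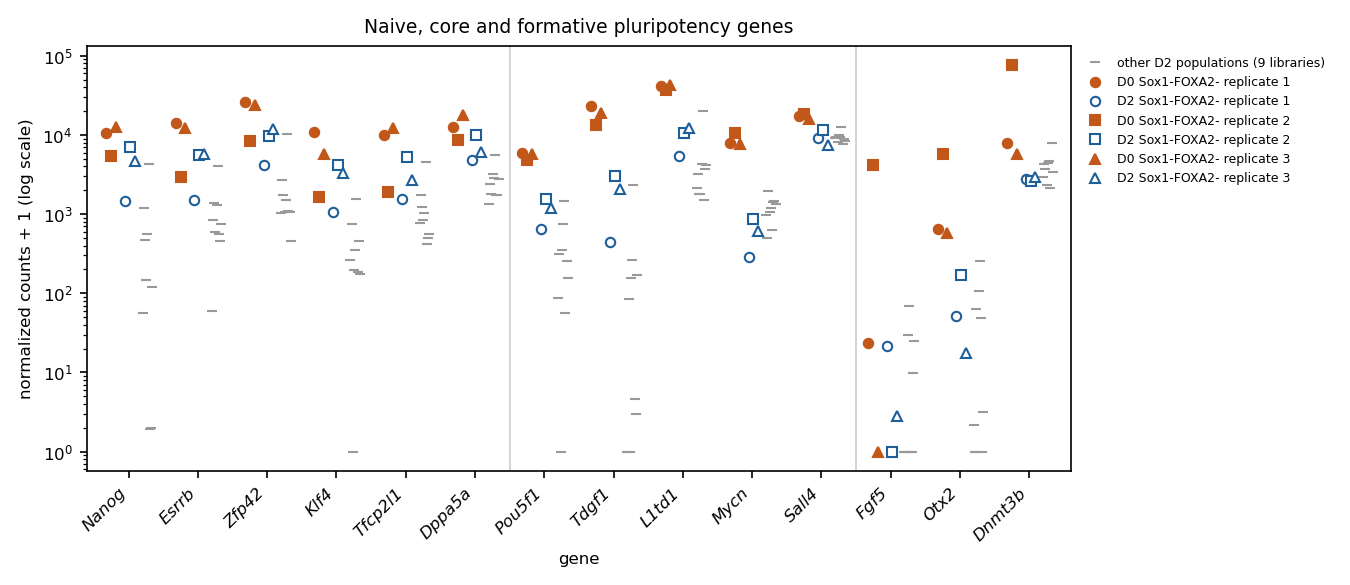
Normalized counts plus 1 (log axis) of naive (left), core (middle) and formative (right) pluripotency genes in each of the 3 D0 libraries (filled), the 3 D2 Sox1-FOXA2- libraries (open) and the 9 libraries of the other D2 populations (grey dashes). D0 replicate 2 (filled square) lies low for Klf4 and Tfcp2l1 and high for Fgf5, Otx2 and Dnmt3b.

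Calls among formative and primed epiblast genes numbered 0 of 18 by edgeR (5 at an unadjusted p under 0.05, 1 by DESeq2), with a median of -0.92. Of all 21037 genes tested, 3038 were at that p. Otx2, a homeodomain factor of the formative state, had 645, 5698 and 575 at D0 and 50.3, 168 and 16.6 at D2 (log2 fold change -4.89 ± 1.99, adjusted p = 0.272). Pou3f1, a POU factor of the same state, had 473, 6037 and 277 at D0 and 326, 216 and 57.3 at D2 (log2 fold change -3.53 ± 1.54, adjusted p = 0.309). Both were highest in D0 replicate 2, as was Fgf5, and the other libraries of both days lay well below it. Without that library the log2 fold change was -2.86 (adjusted p = 0.619) for Otx2 and -0.84 (adjusted p = 0.903) for Pou3f1, and the median of the list was -0.05.

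DNA methylation and demethylation enzymes had 0 of 17 tested genes called higher and 2 called lower, with a median of -0.45. Tet1 (ENSMUSG00000047146.17, chromosome 10, 62804570 to 62908996, GRCm38), which oxidizes methylated cytosine, had 43750.5, 23151 and 42736 normalized counts in the D0 libraries and 6131, 9898 and 10512 in the D2 libraries. Every D0 library exceeded every D2 library (log2 fold change -2.01 ± 0.32, adjusted p = 0.00210). Dnmt3b, a de novo methyltransferase of the epiblast, had 7952, 76866 and 5705 at D0 and 2763, 2652 and 2935 at D2 (log2 fold change -3.46 ± 0.73, adjusted p = 0.0156), without overlap but with most of its D0 counts in replicate 2. Without that library its log2 fold change was -1.22 (adjusted p = 0.173), no longer called. The call of Dnmt3b ended without D0 replicate 2 or D2 replicate 1 or 3 and in the fit of 6 libraries (adjusted p 0.0614 to 0.173). Polycomb and histone modifiers had 0 of 19 tested genes called higher and 1 called lower, with a median of -0.37. Eed, a core subunit of Polycomb repressive complex 2, had 8722, 4905 and 8646 at D0 and 3366, 3695 and 2829.5 at D2 (log2 fold change -1.14 ± 0.28, adjusted p = 0.0392), without overlap. The call of Eed ended without D0 replicate 1 or 3, D2 replicate 1, 2 or 3, D2 Sox1+FOXA2- replicate 2, D2 Sox1-FOXA2+ replicate 2 or D2 Sox1+FOXA2+ replicate 1 and in the fits of 57, 39 and 6 libraries (adjusted p 0.0510 to 0.332).

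Among LIF and STAT3 genes calls numbered 0 of 17 by edgeR (4 at an unadjusted p under 0.05, 0 by DESeq2), with a median of -0.25 (0.13 without D0 replicate 2) whose sign changed under 2 of 22 alternatives. Of all 21037 genes tested, 3038 were at that p. Lifr, the LIF receptor, had 3984, 1576 and 4461 at D0 and 928, 1183 and 1726 at D2, all D2 libraries but replicate 3 below the D0 libraries. Socs3, the feedback inhibitor of STAT3, had 3589, 0 and 2361 at D0 and 302, 216 and 109 at D2, D0 replicate 2 lying below the D2 libraries and D0 replicates 1 and 3 above them. Without D0 replicate 2 the log2 fold change was -1.64 (adjusted p = 0.124) for Lifr, -3.76 (adjusted p = 0.0728) for Socs3 and 3.96 (adjusted p = 0.0131) for the kinase gene Jak2, which was then called. FGF and ERK genes had 1 of 19 tested genes called higher and 1 called lower, with a median of -0.56 (0.07 without D0 replicate 2) whose sign changed under 1 of 22 alternatives. Etv5, a transcription factor induced by FGF, had 12240.1, 13858 and 9438 at D0 and 2572, 4941 and 5187 at D2 (log2 fold change -1.47 ± 0.33, adjusted p = 0.0212), and Spred1, an inhibitor of ERK signalling, had 1869, 1689 and 905 at D0 and 4031, 4351 and 3969.8 at D2 (log2 fold change 1.48 ± 0.31, adjusted p = 0.0156), both without overlap. BMP genes had 2 of 18 tested genes called higher and 0 called lower, with a median of 0.39 (0.77 without D0 replicate 2, and 0.0 to 0.77 over 22 alternatives). Bmpr1a, a type I BMP receptor, had 1959, 2115 and 1269 at D0 and 4895, 4573 and 4349.6 at D2 (log2 fold change 1.38 ± 0.29, adjusted p = 0.0166), and the ligand gene Bmp7 had 44.8, 3.30 and 157 at D0 and 650.3, 464 and 603 at D2 (log2 fold change 3.17 ± 0.81, adjusted p = 0.0462), again without overlap. The BMP targets Id1, Id2 and Id3 were lower at D2 without overlap and not called, with log2 fold changes of -3.69, -2.14 and -2.26. The call of Etv5 ended without D0 replicate 1 or 2 or D2 replicate 1 and in the fits of 57 and 39 libraries (adjusted p 0.0622 to 0.353). The call of Spred1 ended without D0 replicate 3 or D2 replicate 1 and in the fits of 57 and 39 libraries (adjusted p 0.0558 to 0.202). The call of Bmpr1a ended without D0 replicate 3 or D2 replicate 1 (adjusted p = 0.0654 and 0.0722). The call of Bmp7 ended without D0 replicate 1, D2 replicate 1, 2 or 3, D2 Sox1+FOXA2- replicate 1 or 2, D2 Sox1-FOXA2+ replicate 1, 2 or 3 or D2 Sox1+FOXA2+ replicate 1, with RLE size factors and in the fits of 57, 39 and 6 libraries (adjusted p 0.0508 to 0.169).

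Wnt genes had 1 of 21 tested genes called higher and 1 called lower, with a median of 0.29 whose sign changed under 1 of 22 alternatives. Lrp6, a Wnt co-receptor, had 4238, 5653 and 3688 at D0 and 10841, 10984 and 9142 at D2 (log2 fold change 1.20 ± 0.27, adjusted p = 0.0208). Ccnd1, the gene of cyclin D1, had 2954, 2601 and 2675 at D0 and 658, 187 and 493 at D2 (log2 fold change -2.60 ± 0.62, adjusted p = 0.0303). Both were without overlap, whereas the direct Wnt target Axin2 had 1043, 1871 and 872 at D0 and 1028, 1096 and 226 at D2, with overlap and no call. Notch genes had 1 of 13 tested genes called higher and 0 called lower, with a median of -0.01 (0.07 without D0 replicate 2) whose sign changed under 15 of 22 alternatives. Notch2, a receptor, had 1068, 1009 and 1383 at D0 and 4392, 3803 and 3215 at D2 (log2 fold change 1.75 ± 0.35, adjusted p = 0.0119), without overlap. Calls among Nodal and Activin genes numbered 0 of 16 by edgeR (5 at an unadjusted p under 0.05, 1 by DESeq2), with a median of -0.03 whose sign changed under 6 of 22 alternatives. Of all 21037 genes tested, 3038 were at that p. Lefty2, an inhibitor of Nodal, had 1283, 780.5 and 549.8 at D0 and 54.4, 276 and 7.39 at D2 (log2 fold change -2.92 ± 1.53, adjusted p = 0.380), lower at D2 without overlap and not called. The call of Lrp6 ended without D0 replicate 1 or 3 or D2 replicate 1 or 2 and in the fits of 57 and 39 libraries (adjusted p 0.0634 to 0.183). The call of Ccnd1 ended without D0 replicate 1 or 3 or D2 replicate 1, 2 or 3 and in the fits of 57 and 39 libraries (adjusted p 0.0558 to 0.364). The call of Notch2 ended without D2 replicate 1 and in the fit of 39 libraries (adjusted p = 0.0572 and 0.0739).

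Neural plate and progenitor genes had 1 of 22 tested genes called higher and 0 called lower, with a median of 0.71, and genes of epithelial and mesenchymal adhesion had 1 of 20 tested genes called higher and 0 called lower, with a median of 0.37. Over 22 alternatives the median ran from 0.37 to 1.03 for the neural list and from 0.02 to 0.67 for the adhesion list. The call of both lists was Cdh2, the neural cadherin, which had 490.2, 757 and 302 at D0 and 3676, 1862 and 1630.1 at D2 (log2 fold change 2.20 ± 0.44, adjusted p = 0.0114). Cdh1, the epithelial cadherin, had 8192, 6910.4 and 7665 at D0 and 3839, 5377 and 4976 at D2 (log2 fold change -0.65 ± 0.29, adjusted p = 0.313). Cdh2 was higher and Cdh1 lower in every D2 library than in every D0 library. Pax6, an early neural factor, had 52.3, 166 and 8.27 at D0 and 849, 487 and 479 at D2 (log2 fold change 2.95 ± 0.85, adjusted p = 0.0832), without overlap, and was called without D0 replicate 2, at 4.32 (adjusted p = 0.0183). Neuroectoderm markers (Sox1, Pax6, Nes, Sox21 and Zfp521) summed to 1088, 3332 and 1377 at D0, Nes being the most abundant in each library, and to 3670.2, 2269 and 4705 at D2, where Nes was highest in replicates 1 and 2 and Zfp521 in replicate 3. The call of Cdh2 ended without D2 replicate 1 and in the fit of 39 libraries (adjusted p = 0.0722 and 0.0571).

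Extraembryonic endoderm genes had 2 of 29 tested genes called higher and 0 called lower, with a median of 0.65 (0.38 to 1.27 over 22 alternatives). Lrp2, an endocytic receptor of visceral endoderm and of neural epithelium, had 3915, 5915 and 4853 at D0 and 11610.5, 13877 and 9413 at D2 (log2 fold change 1.27 ± 0.32, adjusted p = 0.0385). Col4a2, a basement membrane collagen, had 189, 294 and 279 at D0 and 1483, 705 and 1034 at D2 (log2 fold change 2.10 ± 0.49, adjusted p = 0.0282). Both were without overlap. The defining factor Gata4 had 2.49, 3.96 and 209 at D0 and 135, 32.3 and 362 at D2, and Sox17 had 0, 0 and 0 at D0 and 69.3, 0 and 9.24 at D2; neither was called. The 7 markers of the lineage (Foxa2, Gata4, Gata6, Sox17, Sox7, Lama1 and Dab2) summed to 2899, 1067 and 4444 at D0, with Sox17 at 0, and to 3933, 2119.7 and 3061 at D2, Lama1 being the most abundant in each library but D0 replicate 2, where Dab2 was. Their part in the result was not tested. The call of Lrp2 ended without D0 replicate 1 or 3 or D2 replicate 1, 2 or 3 and in the fits of 57 and 39 libraries (adjusted p 0.0601 to 0.318). The call of Col4a2 ended without D0 replicate 1 or 3 or D2 replicate 1 or 3 and in the fits of 57, 39 and 6 libraries (adjusted p 0.0541 to 0.142).

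Lists of other fates held no call by edgeR. Of all 21037 genes tested, 3038 were at an unadjusted p under 0.05. Among neuronal differentiation genes calls numbered 0 of 14 by edgeR (3 at an unadjusted p under 0.05, 1 by DESeq2), with a median of -0.24 (0.64 without D0 replicate 2, 0.97 without D0 replicate 1) whose sign changed under 12 of 22 alternatives. Among streak and mesoderm genes they numbered 0 of 10 by edgeR (2 at an unadjusted p under 0.05, 2 by DESeq2), with a median of -0.83 (0.06 without D0 replicate 2, 0.91 without D0 replicate 3) whose sign changed under 3 of 22 alternatives. This list had 1 call, higher at D2, without D0 replicate 2. The streak markers T, Eomes, Mixl1 and Gsc summed to 413, 474 and 239.8 at D0 and 188, 122 and 140.5 at D2. Eomes had the highest mean on both days but led only in replicate 2 of each, with T (D0) and Mixl1 (D2) highest in replicate 1 and Gsc in replicate 3. Among trophectoderm genes calls numbered 0 of 13 by edgeR (0 at an unadjusted p under 0.05, 0 by DESeq2), with a median of 0.67 (1.17 without D0 replicate 2). This median fell to 0.03 at its lowest over 22 alternatives. Fibroblast genes gave 0 of 11 by edgeR (1 at an unadjusted p under 0.05, 0 by DESeq2), with a median of 0.66 (1.16 without D0 replicate 2), and their markers Col1a1, Col1a2, Col3a1, Dcn and Lum summed to 7.47, 243 and 20.7 at D0, with Lum at 0 and Col1a1 highest in replicates 1 and 3 and Dcn in replicate 2, and to 406, 29.7 and 79.5 at D2, with Col1a2 highest in replicates 1 and 2 and Col1a1 in replicate 3. Blood and endothelial genes gave 0 of 9 by edgeR (0 at an unadjusted p under 0.05, 0 by DESeq2), with a median of 0.46, and their markers Ptprc, Pecam1, Cdh5 and Tal1 summed to 2504, 1218 and 4122 at D0 and 1769.5, 3950.2 and 4526 at D2, Pecam1, which ESCs also express, being the most abundant. The part of such cells in the results was not tested. Immediate early genes, which respond to handling as well as to serum, gave 0 of 16 by edgeR (3 at an unadjusted p under 0.05, 5 by DESeq2), with a median of -0.40 (-0.24 without D0 replicate 2). Over 22 alternatives the median ran from -0.74 to -0.08 for immediate early genes. It ran from 0.09 to 1.23 for fibroblast genes and from 0.24 to 1.44 for blood and endothelial genes.

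Germline genes gave 0 of 20 by edgeR (2 at an unadjusted p under 0.05, 0 by DESeq2), with a median of 0.84. Of all 21037 genes tested, 3038 were at that p. The median ran from 0.28 to 1.06 over 22 alternatives, and without D0 replicate 2 the list had 1 call, higher at D2. Dazl, an RNA-binding protein gene of germ cells, had 324, 368 and 194 at D0 and 934, 1758 and 1279 at D2 (log2 fold change 2.18 ± 1.07, adjusted p = 0.356), higher at D2 without overlap. Genes of the 2-cell-like state, which a small subset of ESCs enters, gave 0 of 19 by edgeR (2 at an unadjusted p under 0.05, 1 by DESeq2), with a median of 2.13. Over 22 alternatives this median ran from 1.05 to 2.56. All 19 tested had a positive value, 6 of them without overlap. Of all 21037 genes tested, 2904 were higher at D2 without overlap. A member with few counts at D0 could pass the filter on low counts through the D2 libraries, so these values do not test the list. The list summed to 1542, 17049 and 17549 at D0 and 33364, 68282 and 9495 at D2. D0 replicate 1 was thus far below the other libraries, and D2 replicate 3 lay below D0 replicates 2 and 3. Zscan4d, one of a family of near-identical copies whose counts are uncertain, had 0, 4853 and 3187 at D0 and 7435, 13714 and 1805 at D2 (log2 fold change 1.54 ± 1.54, adjusted p = 0.745). D2 replicate 2 was its highest library and D0 replicate 1 its lowest, and the groups overlapped.

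Fatty acid synthesis genes had 5 of 12 tested genes called higher and 0 called lower, with a median of 1.20, and 10 were higher at D2 without overlap, as were 2904 of all 21037 genes tested. Scd2 (ENSMUSG00000025203.6, chromosome 19, 44293674 to 44306864, GRCm38), a stearoyl-CoA desaturase, had 6773, 4452 and 6619 normalized counts in the D0 libraries and 43451, 38987 and 36748 in the D2 libraries. The spread within each day was small beside the difference, and its p was the lowest of all genes tested (log2 fold change 2.77 ± 0.24, adjusted p = 8.1e-06). Scd1, its paralog, had 1287, 1558 and 802 at D0 and 10967, 9895 and 9245 at D2 (log2 fold change 3.05 ± 0.32, adjusted p = 3.7e-05). Fads2, a desaturase of polyunsaturated fatty acids, had 866, 1489.8 and 649 at D0 and 5159, 4836 and 4112 at D2 (log2 fold change 2.23 ± 0.34, adjusted p = 0.00152). The other calls were Fads1, its neighbor, at 2.18 ± 0.52 (adjusted p = 0.0328), and Srebf1, the transcription factor of the pathway. Srebf1 had 1565, 715 and 1792 at D0 and 4013, 2978 and 3487 at D2 (adjusted p = 0.0462), without overlap. Fasn, the fatty acid synthase, had 17169, 28588 and 17777 at D0 and 26240.2, 22184 and 23455 at D2, with overlap and no call. Cholesterol genes had 3 of 26 tested genes called higher and 0 called lower, with a median of 0.74, and 23 had a positive value. Of the 3 calls, 1 without D0 replicate 1, 2 without D0 replicate 2, 2 without D0 replicate 3, 2 without D2 replicate 1, 2 without D2 replicate 2 and 3 without D2 replicate 3 ended, as did up to 1 without 1 of the other D2 libraries. With all libraries kept, 3 in the fit of 57 libraries, 3 in the fit of 39 libraries and 3 in the fit of 6 libraries ended (adjusted p of ended calls 0.0528 to 0.436). Cyp51, among the called, had 356, 1268 and 604 at D0 and 2395, 2927 and 2813 at D2 (log2 fold change 1.88 ± 0.40, adjusted p = 0.0164). The call of Fads1 ended without D0 replicate 2 or 3 or D2 replicate 1, 2 or 3 and in the fit of 6 libraries (adjusted p 0.0527 to 0.121). The call of Srebf1 ended without D0 replicate 1, 2 or 3, D2 replicate 1, 2 or 3, D2 Sox1+FOXA2- replicate 2, D2 Sox1-FOXA2+ replicate 1 or 2 or D2 Sox1+FOXA2+ replicate 2 and in the fits of 57, 39 and 6 libraries (adjusted p 0.0504 to 0.295). The call of Cyp51 ended without D0 replicate 1 or 3 or D2 replicate 3 and in the fits of 57, 39 and 6 libraries (adjusted p 0.0580 to 0.166).

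Glycolysis and hypoxia genes had 1 of 23 tested genes called higher and 8 called lower, with a median of -1.21 (-0.88 without D0 replicate 2), and 16 were lower at D2 without overlap, as were 2211 of all 21037 genes tested. Ldha (ENSMUSG00000063229.15, chromosome 7, 46841475 to 46855627, GRCm38), which makes lactate, had 21887, 34298 and 18531 normalized counts in the D0 libraries and 5145, 6379 and 5919 in the D2 libraries. Each D0 library exceeded each D2 library, D0 replicate 2 by the most (log2 fold change -2.09 ± 0.28, adjusted p = 4.9e-04). Pkm, a pyruvate kinase, had 60229, 89326 and 60844 at D0 and 25087, 25694 and 24579 at D2 (log2 fold change -1.46 ± 0.21, adjusted p = 0.00107). Eno1, an enolase, had 31259, 53435 and 36938 at D0 and 15006, 15633 and 14596 at D2 (log2 fold change -1.41 ± 0.24, adjusted p = 0.00395). In both, the D2 libraries lay close together, below every D0 library. The other enzymes called lower were Tpi1, Pfkl, Aldoa, Pgk1 and Gapdh, with log2 fold changes from -1.64 to -1.21. Slc2a1, a glucose transporter, was the gene called higher and had 4003, 4106 and 5229.6 at D0 and 9073, 9810.3 and 9523 at D2 (log2 fold change 1.12 ± 0.25, adjusted p = 0.0212). Of its exon bases 61.3%, and of those of Aldoa 50.6%, lie inside another gene. Slc2a3, a second transporter, had 19114, 9883 and 27161 at D0 and 43824, 58822 and 49311 at D2 (log2 fold change 1.48 ± 0.39, adjusted p = 0.0524), higher at D2 without overlap and not called. Of the 9 calls, 2 without D0 replicate 1, 3 without D0 replicate 2, 4 without D2 replicate 1, 3 without D2 replicate 2 and 5 without D2 replicate 3 ended. Other alternatives ended 4 in the fit of 57 libraries, 5 in the fit of 39 libraries and 2 in the fit of 6 libraries (adjusted p of all ended calls 0.0541 to 0.541). Ldha, Tpi1, Pkm and Eno1 were called in every alternative tried. Without D0 replicate 2 the calls were 1 higher and 5 lower with a median of -0.88.

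Cell cycle regulators had 1 of 26 tested genes called higher and 5 called lower, with a median of -0.48. Mki67, a gene of proliferating cells, had 14566, 13611 and 13559.8 at D0 and 25886, 28429 and 24364 at D2 (log2 fold change 0.94 ± 0.19, adjusted p = 0.0136). Mcm2, a subunit of the replicative helicase, had 16192, 15014 and 14986 at D0 and 7215, 8036 and 6106 at D2 (log2 fold change -1.09 ± 0.21, adjusted p = 0.0104). Pcna, the replication clamp, had 5711, 5744 and 5556 at D0 and 2484, 2264 and 2709 at D2 (log2 fold change -1.17 ± 0.26, adjusted p = 0.0214). Mki67 was higher, and the replication genes lower, in every D2 library. Ccne1, the gene of cyclin E1, had 8894, 7876 and 8157 at D0 and 3930.4, 4091 and 3353 at D2 (log2 fold change -1.11 ± 0.26, adjusted p = 0.0299), without overlap. Of the 6 calls, 4 without D0 replicate 1, 2 without D0 replicate 2, 2 without D0 replicate 3, 5 without D2 replicate 1, 4 without D2 replicate 2 and 4 without D2 replicate 3 ended. From the full set of libraries, 5 in the fit of 57 libraries and 5 in the fit of 39 libraries ended, and the adjusted p of ended calls was 0.0512 to 0.364. These calls include Mycn and Ccnd1. Myc, the paralog of Mycn, had 3058, 1118 and 1488 at D0 and 55.7, 204 and 124 at D2 (log2 fold change -3.85 ± 1.63, adjusted p = 0.291), lower at D2 without overlap and not called.

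The p53 and stress response genes had 0 of 19 tested genes called higher and 1 called lower, with a median of -0.02 (0.24 without D0 replicate 2) whose sign changed under 7 of 22 alternatives. The call was Trp53, the gene of p53, which had 13119.8, 12259 and 11666 at D0 and 5514, 6394 and 7295 at D2 (log2 fold change -0.92 ± 0.23, adjusted p = 0.0381), without overlap. The call of Trp53 ended without D0 replicate 1, 2 or 3, D2 replicate 1, 2 or 3, D2 Sox1+FOXA2- replicate 2, D2 Sox1-FOXA2+ replicate 1, 2 or 3 or D2 Sox1+FOXA2+ replicate 1, with no filter on low counts and in the fits of 57 and 39 libraries (adjusted p 0.0513 to 0.367). Imprinted genes had 2 of 15 tested genes called higher and 0 called lower, with a median of 1.13. Igf2r, a receptor that clears IGF2, had 2024, 1696 and 2369 at D0 and 5872, 5479 and 6350.3 at D2 (log2 fold change 1.57 ± 0.32, adjusted p = 0.0134). Mest, a paternally expressed gene, had 2275, 2539 and 2423 at D0 and 10039, 6264 and 5048 at D2 (log2 fold change 1.58 ± 0.33, adjusted p = 0.0157). Both were without overlap. The call of Igf2r ended without D2 replicate 1 or 3 and in the fits of 57 and 39 libraries (adjusted p 0.0547 to 0.146). The call of Mest ended without D0 replicate 1 or D2 replicate 1 and in the fits of 57 and 39 libraries (adjusted p 0.0534 to 0.297). Serum response and cytoskeletal genes had 0 of 15 tested genes called higher and 1 called lower, with a median of -0.75 (-0.20 without D0 replicate 2). Actg1, a cytoplasmic actin, had 31639.8, 35114 and 32273 at D0 and 17088, 18604 and 13507 at D2 (log2 fold change -0.99 ± 0.20, adjusted p = 0.0128), without overlap. The call of Actg1 ended without D2 replicate 1 or 3 and in the fits of 57 and 39 libraries (adjusted p 0.0616 to 0.236).

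**Figure D3:**
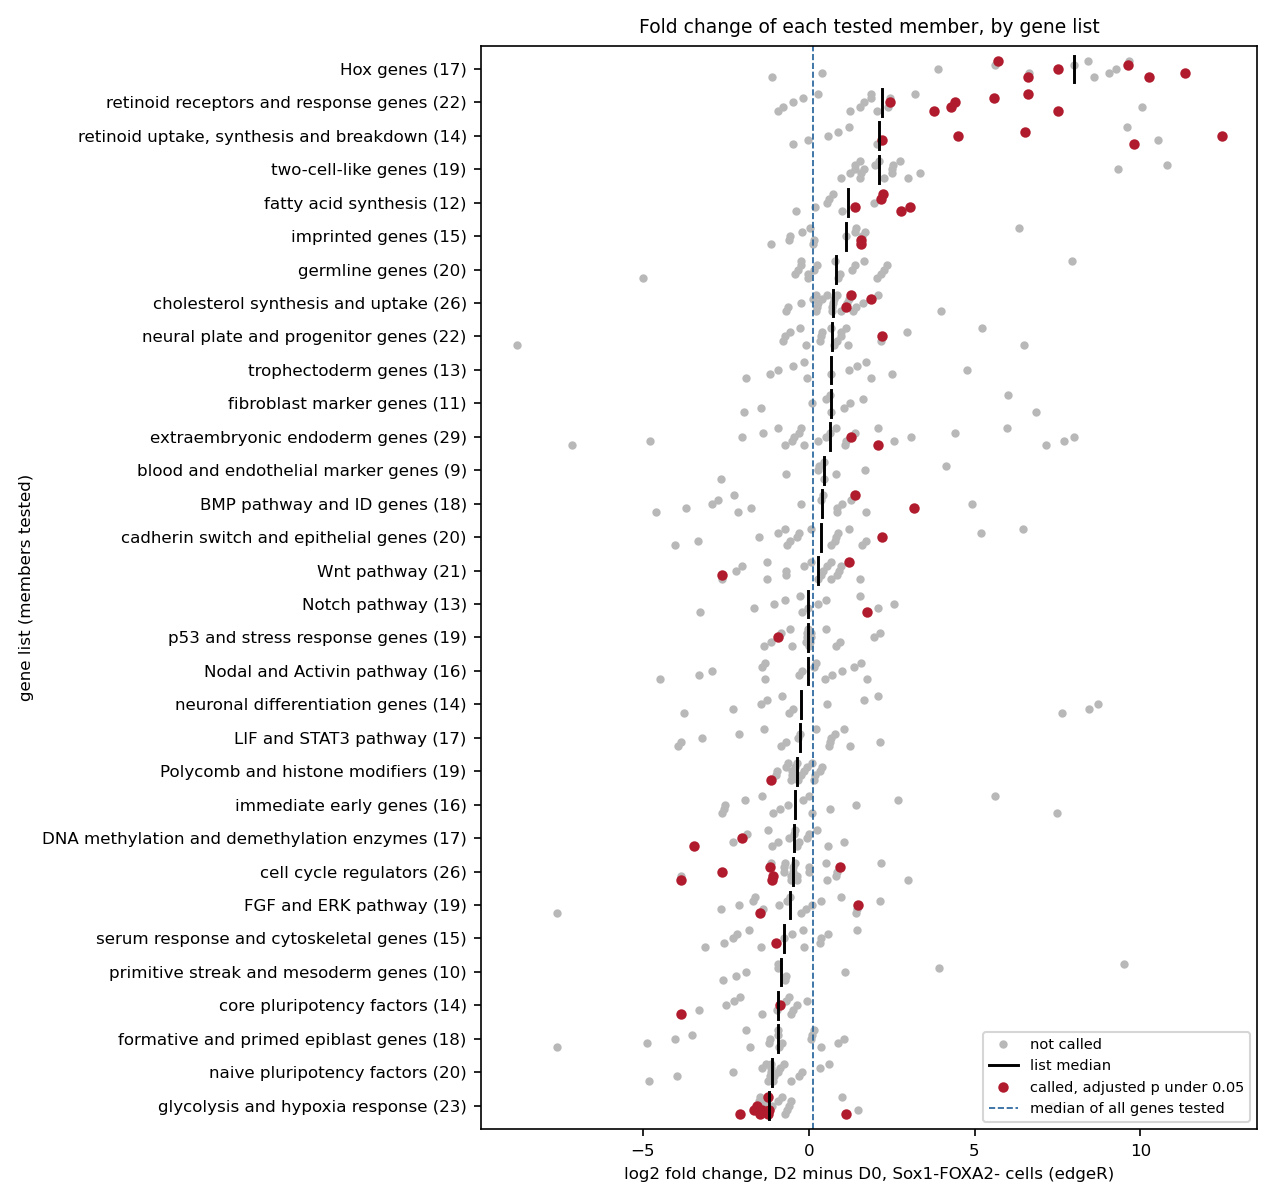
Log2 fold change of each tested member of the 32 gene lists (points, 1 per gene, called genes in red), with the median of each list (black bar) and of all genes tested (dashed line, 0.11). Lists run from the highest median, Hox genes at 7.99, to the lowest, glycolysis and hypoxia response at -1.21.

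Another 5 lists were added after the values had been seen, since called genes belonged to them, and so are description. Ribosome biogenesis genes had 0 of 39 tested genes called higher and 18 called lower, 38 lower at D2 without overlap and a median of -1.11. Of all 21037 genes tested, 2211 were lower at D2 without overlap. Ncl, the gene of nucleolin, had 214945, 238610.5 and 209394 at D0 and 68904, 96914 and 86008 at D2 (log2 fold change -1.37 ± 0.26, adjusted p = 0.00723). Npm1, the gene of nucleophosmin, had 214619, 231835 and 188909.8 at D0 and 61192, 86642 and 80640 at D2 (log2 fold change -1.45 ± 0.25, adjusted p = 0.00453). Every D0 library stood above every D2 library for both. Of the 18 calls, 11 without D0 replicate 1, 8 without D0 replicate 2, 4 without D0 replicate 3, 13 without D2 replicate 1, 7 without D2 replicate 2 and 12 without D2 replicate 3 ended, as did up to 4 without 1 of the other D2 libraries. With all libraries kept, 14 in the fit of 57 libraries, 15 in the fit of 39 libraries and 2 in the fit of 6 libraries ended (adjusted p of ended calls 0.05 to 0.295). Ribosomal protein genes, many of which have near-identical pseudogenes and so uncertain counts, had 0 of 78 tested genes called higher and 31 called lower, 68 lower without overlap and a median of -0.91. Rpl8, of the large subunit, had 75115, 64530.1 and 73258 at D0 and 28661, 35346 and 25106 at D2 (log2 fold change -1.23 ± 0.21, adjusted p = 0.00418), and was called in every alternative tried. Of the 31 calls, 17 without D0 replicate 1, 4 without D0 replicate 2, 19 without D0 replicate 3, 28 without D2 replicate 1, 8 without D2 replicate 2 and 27 without D2 replicate 3 ended, as did up to 4 without 1 of the other D2 libraries. Other alternatives ended 30 in the fit of 57 libraries, 30 in the fit of 39 libraries and 14 in the fit of 6 libraries (adjusted p of all ended calls 0.0501 to 0.364).

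Purine synthesis enzymes, another list added after the values were seen, had 0 of 13 tested genes called higher and 5 called lower, with a median of -0.99. The calls were Ppat, Gart, Paics, Atic and Impdh2. Atic, which closes the purine ring, had 7807, 9458 and 5990.3 at D0 and 2480.3, 2412 and 2857 at D2 (log2 fold change -1.57 ± 0.27, adjusted p = 0.00366), every D0 library standing above 2 times the highest D2 library. Of the 5 calls, 1 without D0 replicate 3, 2 without D2 replicate 1 and 2 without D2 replicate 3 ended. From the full set of libraries, 5 in the fit of 57 libraries and 5 in the fit of 39 libraries ended, and the adjusted p of ended calls was 0.0501 to 0.186. Subunits of the chaperonin CCT, also a list added after the values were seen, had 0 of 8 tested genes called higher and 2 called lower (Cct4 and Cct5). All 8 were lower at D2 without overlap, as were 2211 of all 21037 genes tested. The median of the list was -0.78. Of the 2 calls, 1 without D0 replicate 1, 1 without D0 replicate 2, 2 without D2 replicate 1 and 2 without D2 replicate 3 ended. With all libraries kept, 2 in the fit of 57 libraries, 2 in the fit of 39 libraries and 2 in the fit of 6 libraries ended (adjusted p of ended calls 0.0527 to 0.378).

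Properties of the libraries moved with the comparison, and their part in the results was not tested. Ribosomal protein genes took 5.29, 5.18 and 5.86% of counts at D0 and 3.31, 3.64 and 3.01% at D2, without overlap (exact permutation test, two-sided, p = 0.1, the smallest possible). Genes longer than 100 kb took 12.5, 13.3 and 10.6% and 16.9, 15.2 and 18.3%, also without overlap (exact permutation p = 0.1). Of the genes tested, 4.78% of the 2785 over 100 kb and 0.422% of the 9705 under 20 kb were called higher, while 0.395% and 1.42% were called lower. The median span was 109335 bases for genes called higher, 13455 for genes called lower and 22724 for all genes tested. By median, genes called higher were thus longer, and genes called lower shorter, than all genes tested. The counts may include reads of introns, which would weigh more on long genes, and this was not tested. Histone genes took 0.969, 0.679 and 1.23% at D0 and 0.967, 0.845 and 0.628% at D2 (exact permutation p = 0.4), and the 10 most abundant genes took 11.9, 8.96 and 25.8% and 18.1, 18.8 and 20.6% (exact permutation p = 0.5).

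Mitochondrial genes took 6.80, 3.21 and 18.1% of counts at D0, lowest in replicate 2, and 11.4, 12.0 and 13.4% at D2, with overlap (exact permutation test, two-sided, p = 0.6). The difference in the mean share, 2.90 percentage points, was -0.183 without D0 replicate 2 and 7.27 without D0 replicate 3. Of 13 protein genes of the mitochondrial genome, a list added after the values were seen, 5 were called higher and 0 lower, with a median of 0.68. Reads of nuclear copies make these counts uncertain. mt-Cytb, of respiratory complex III, had 62372, 31694 and 71402 at D0 and 103996, 109919.9 and 115130.4 at D2 (log2 fold change 1.03 ± 0.22, adjusted p = 0.0156), with D0 replicate 2 the lowest library. Of the 5 calls, 2 without D0 replicate 1, 3 without D0 replicate 2, 4 without D2 replicate 1, 4 without D2 replicate 2 and 4 without D2 replicate 3 ended, as did up to 1 without 1 of the other D2 libraries. Other alternatives ended 2 with RLE size factors, 5 in the fit of 57 libraries, 5 in the fit of 39 libraries and 5 in the fit of 6 libraries (adjusted p of all ended calls 0.0528 to 0.479).

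Beside Cyp26a1, Cyp26b1, Hoxb7 and Hoxc4, the 15 largest fitted log2 fold changes among called genes without overlap were those of Adgra2, Pcdh19, Syt13, Insyn1, Tlcd2, Tcp11x2, Clic6, Zfp503, Ephb6, Klhdc8a and Col6a1. These 11 were at 0 in the 3 D0 libraries, and over the group they were at least 91.6-fold higher (Col6a1) to at least 789-fold higher (Adgra2). With no or few counts at D0, the order of such genes, Hoxb9 included, is that of the fit and not fixed by the data. Adgra2, an adhesion receptor of the G protein-coupled class, had 0, 0 and 0 at D0 and 1271, 549 and 688 at D2 (adjusted p = 7.0e-05). Syt13, a synaptotagmin, had 0, 0 and 0 at D0 and 410.4, 444 and 489.8 at D2 (adjusted p = 0.0134). Pcdh19, a protocadherin, had 0, 0 and 0 at D0 and 641, 238 and 590.5 at D2 (adjusted p = 0.0134). All 3 genes were clearly counted in every D2 library. Of the 15 calls, 7 without D0 replicate 1, 6 without D0 replicate 2, 6 without D0 replicate 3, 7 without D2 replicate 1, 1 without D2 replicate 2 and 6 without D2 replicate 3 ended, as did up to 3 without 1 of the other D2 libraries. From the full set of libraries, 1 with the replicate number as a block, 1 in the fit of 57 libraries, 4 in the fit of 39 libraries and 7 in the fit of 6 libraries ended, and the adjusted p of ended calls was 0.0507 to 0.217. Cyp26a1, Hoxb7, Tlcd2, Syt13, Cyp26b1 and Adgra2 were called in every alternative tried.

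Among genes with a mean of at least 1000 normalized counts on 1 of the days, Fbn2, a fibrillin of the extracellular matrix, had 69.7, 14.5 and 223 at D0 and 3555, 1723 and 1269.7 at D2 (log2 fold change 4.53 ± 0.69, adjusted p = 0.00152), and Egfem1 had 84.6, 46.8 and 57.9 at D0 and 2078, 668 and 1923 at D2 (log2 fold change 4.64 ± 0.80, adjusted p = 0.00411). Of the 10 genes with the lowest p, Mdk, the gene of midkine, a growth factor known to be induced by RA, had 2745, 2807 and 2311 at D0 and 15408, 13247 and 9652 at D2 (log2 fold change 2.30 ± 0.24, adjusted p = 3.7e-05). Prkd1, a protein kinase, had 302, 417 and 405 at D0 and 2978, 2595 and 2414 at D2 (log2 fold change 2.85 ± 0.32, adjusted p = 8.3e-05). Clcn5, an endosomal chloride transporter, had 804, 686 and 1356 at D0 and 4633, 4767 and 6649.7 at D2 (log2 fold change 2.54 ± 0.30, adjusted p = 1.4e-04). In each of these genes the lowest D2 library exceeded the highest D0 library several times over. Ybx3, a cold shock domain protein gene and the gene with a negative value among the 10, had 18995, 20983 and 17938 at D0 and 5077, 5907 and 5097 at D2 (log2 fold change -1.83 ± 0.22, adjusted p = 1.4e-04), its libraries lying close together within each day.

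Among called genes without overlap, clone names left out, the 15 smallest log2 fold changes were those of Mycn, Dnmt3b, Jade2, Tmsb4x, Ccnb1ip1, Ccnd1, Stx3, Isyna1, Jup, Ldha, Tet1, Usp28, Fabp5, Myrf and Dpysl3, from -3.86 to -1.97. Jade2, a subunit of histone acetyltransferase complexes, had 4917, 4256 and 1424 at D0 and 457, 141 and 538 at D2 (log2 fold change -3.23 ± 0.73, adjusted p = 0.0239). Tmsb4x, which binds actin monomers, had 4273, 603 and 5075 at D0 and 506, 477 and 237 at D2 (log2 fold change -2.97 ± 0.62, adjusted p = 0.0148). Tmsb4x was close to the D2 level in D0 replicate 2, and Jade2 was lowest at D0 in replicate 3. Jup, the gene of plakoglobin, a protein of cell junctions, had 4708, 3231 and 4796 at D0 and 821, 1065 and 933 at D2 (log2 fold change -2.14 ± 0.42, adjusted p = 0.0105). Usp28, a deubiquitinase, had 7226, 9717 and 5866 at D0 and 1652, 1941 and 2064 at D2 (adjusted p = 0.00177). Fabp5, which carries fatty acids and RA in the cell, had 1177, 2248 and 2621 at D0 and 589.8, 412 and 489.8 at D2 (log2 fold change -1.99 ± 0.48, adjusted p = 0.0319). In these 3 the groups stood well apart. Of the 15 calls, 6 without D0 replicate 1, 7 without D0 replicate 2, 4 without D0 replicate 3, 11 without D2 replicate 1, 7 without D2 replicate 2 and 10 without D2 replicate 3 ended, as did up to 1 without 1 of the other D2 libraries. With all libraries kept, 1 with no filter on low counts, 6 in the fit of 57 libraries, 8 in the fit of 39 libraries and 2 in the fit of 6 libraries ended (adjusted p of ended calls 0.0512 to 0.364). Mycn, Ldha, Tet1 and Usp28 were called in every alternative tried.

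The second comparison set D2 Sox1-FOXA2- cells against the mean of the other 3 D2 populations, which had the same medium, RA and time. That mean is of logs, and the 3 populations differed among themselves. The comparison called 8 of 21037 genes, or 0.038%, 6 higher and 2 lower in Sox1-FOXA2- cells by edgeR, with 1766 genes at an unadjusted p under 0.05 and 424 calls by DESeq2. Higher were Zscan4a, Gm1995, Gm40662, Gpx4, Arl15 and Dppa5a, and lower were Igfbp4 and Peg3; those outside the lists were named after their values were seen. Dppa5a, an RNA-binding protein gene of ESCs, had 4875, 9916 and 6089 in D2 Sox1-FOXA2- cells and 1342 to 5534 (median 2386) in the other 9 D2 libraries (adjusted p = 0.0270). Zscan4a, of the 2-cell-like set, had 968, 5232 and 554 in D2 Sox1-FOXA2- cells and 0 to 624 (median 0.983) in the other 9 D2 libraries (adjusted p = 1.2e-04). The D2 Sox1+FOXA2- libraries held 624, 65.0 and 318 of it, more in replicate 1 than D2 Sox1-FOXA2- replicate 3, and the other 2 populations at most 1.36. With so few counts there, its fold is not fixed by the data. Gpx4, which protects lipids from peroxidation, had 9091, 15705 and 9181 in D2 Sox1-FOXA2- cells and 1965 to 6479.9 (median 3171) in the other 9 D2 libraries (log2 fold change 1.80 ± 0.23, adjusted p = 0.00169). All 3 were highest in D2 Sox1-FOXA2- replicate 2. Peg3, an imprinted zinc finger gene, had 14798, 5504 and 7173 in D2 Sox1-FOXA2- cells and 18125 to 97544 (median 51662) in the other 9 D2 libraries (log2 fold change -2.43 ± 0.40, adjusted p = 0.0253). Igfbp4, which binds insulin-like growth factors, had 529, 305 and 618 in D2 Sox1-FOXA2- cells and 1228 to 7078 (median 3119) in the other 9 D2 libraries (log2 fold change -2.58 ± 0.43, adjusted p = 0.0253). Both were lowest in D2 Sox1-FOXA2- replicate 2. The call of Dppa5a ended without D2 replicate 2 or 3, D2 Sox1+FOXA2- replicate 1 or 2 or D2 Sox1-FOXA2+ replicate 1 and in the fits of 57 and 39 libraries (adjusted p 0.0552 to 0.599). The call of Gpx4 ended without D2 replicate 2 (adjusted p = 0.0786). The call of Gm1995 ended without D2 replicate 2 (adjusted p = 0.179). The call of Gm40662 ended without D2 replicate 2, D2 Sox1+FOXA2- replicate 1 or 2 or D2 Sox1-FOXA2+ replicate 1 or 2 (adjusted p 0.0605 to 0.599). The call of Arl15 ended without D2 replicate 2 and in the fit of 39 libraries (adjusted p = 0.0947 and 0.0792). The call of Peg3 ended without D2 replicate 2 or 3 (adjusted p = 0.179 and 0.0953). The call of Igfbp4 ended without D2 replicate 2 or 3 (adjusted p = 0.278 and 0.0673).

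This count of 8 depended on the fit and on single libraries. It was 32 with the replicate number as a block, 325 with no filter on low counts, 31 in the fit of 57 libraries and 14 in the fit of 39. With 1 library left out it was 18 without D0 Sox1-FOXA2- replicate 1, 34 without D2 Sox1-FOXA2- replicate 1, 21 without D2 Sox1+FOXA2+ replicate 1, 1 without D2 Sox1-FOXA2- replicate 2, 26 without D2 Sox1+FOXA2+ replicate 2, 26 without D0 Sox1-FOXA2- replicate 2, 48 without D2 Sox1+FOXA2- replicate 3, 31 without D2 Sox1-FOXA2+ replicate 3 and 25 without D2 Sox1+FOXA2+ replicate 3. Naive pluripotency factors had a median of 2.17 in this comparison, beside 0.05 for all genes tested, and 19 of the 20 had a positive value, with 17 at an unadjusted p under 0.05 and 7 called by DESeq2 and Dppa5a the call by edgeR. Of all 21037 genes tested, 11186 had a positive value in this comparison. Nanog had 145, 560.0 and 4247 in D2 Sox1+FOXA2-, 55.5, 1194 and 469 in D2 Sox1+FOXA2+ and 0.903, 0.983 and 117 in D2 Sox1-FOXA2+ cells, with a log2 fold change of 3.75 (adjusted p = 0.130). Klf2, another naive factor, ranged over 0 to 242 (median 72.7), with 3.69 (adjusted p = 0.0747). D2 Sox1-FOXA2- replicates 2 and 3 for Nanog, and all 3 replicates for Klf2, lay above the 9 other libraries. Of those 9, D2 Sox1+FOXA2- replicate 3 stood apart. Its Zfp42 (10142), Nanog, Esrrb (4087), Tdgf1 (2341) and Dppa5a (5534) were the highest of the 9 and within the range of the D2 Sox1-FOXA2- libraries. Genes of the 2-cell-like state had a median of 4.16, with 19 of 19 positive, 15 at an unadjusted p under 0.05 and 1 called by DESeq2, and Zscan4a the call by edgeR. Members near 0 in other D2 populations could pass the filter on low counts through the libraries where they are counted. The median and sign count thus describe genes counted there and do not test the list, and counts of its near-identical copies are uncertain. Extraembryonic endoderm genes had a median of -1.46, with 23 of 29 negative. Of the 29, 8 were at an unadjusted p under 0.05, with 2 called by DESeq2 and 0 by edgeR. The populations compared include FOXA2+ ones, and Foxa2 is a marker of this lineage. The sort may thus set part of this difference, which was not tested. Each lineage marker summed above had its highest D2 mean in Sox1-FOXA2+ cells. Lama1 was at 14521 there, 4276 (Sox1+FOXA2+), 3356 (Sox1+FOXA2-) and 1954 (Sox1-FOXA2-). All but Gata4 were lowest in Sox1-FOXA2- cells, where Gata4 was at 176, above Sox1+FOXA2+ (110) and Sox1+FOXA2- (63.1). Genes of retinoid uptake, synthesis and breakdown had a median of -0.41, with 0 at an unadjusted p under 0.05. The median was -0.22 for retinoid receptors and response genes, with 3 at that p, and -0.22 for Hox genes, with 0. The 3 lists held 0 calls by edgeR and 0, 1 and 0 by DESeq2. Stra8 ranged over 16182 to 45899 (median 22592) and Cyp26a1 over 1040.3 to 8951 (median 2782) in the other D2 populations, and the values of Sox1-FOXA2- cells overlapped both ranges. This comparison and that with D0 share the 3 D2 Sox1-FOXA2- libraries.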

How the data were processed

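Bulk RNA-seq of sorted cells was measured with SMART-Seq Stranded libraries. Raw counts per gene are as the authors deposited them, made with featureCounts after STAR alignment (GENCODE mouse release M21, GRCm38); tool versions and the strand setting are not stated. The samples and gene lists were chosen with earlier results of these data known. Of the 15 libraries of D0 and D2 fitted together with edgeR 4.0.16 (TMM, filterByExpr by group, quasi-likelihood test), 6 are compared here. Benjamini-Hochberg adjustment ran over all 21037 genes tested, at a threshold of 0.05. Named genes were list members, 15 called genes without overlap at each end of the log2 fold change scale (clone names left out), 10 at each end with a mean of at least 1000 normalized counts, and the 10 smallest p. Normalized counts and the Wald test came from DESeq2 1.42.0. Overlap with other genes was read from the annotation spans. Alternatives were RLE size factors, no filter on low counts, DESeq2, a replicate block, other sets of libraries and leaving out each library. The pipeline was tested on simulated data.

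Some called genes and list members are not reported here by name; the counts and medians of the gene lists include them.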

Additional observations from a re-analysis of the deposited data

How the results depend on the processing

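Against D0, 461 genes were called in the fit reported, 481 (252 higher, 229 lower) with RLE size factors, 1744 (1116 higher, 628 lower) by DESeq2's Wald test, 885 (522 higher, 363 lower) with no filter on low counts, 247 (212 higher, 35 lower) in a fit of all 57 libraries, 120 (99 higher, 21 lower) in a fit of the 39 sorted libraries and 412 (180 higher, 232 lower) in a fit of the 6 compared libraries. Larger fits took in later days and estimated the spread from them. Leaving out 1 of the 15 libraries gave 110 to 606 calls. Against the other D2 populations, 8 genes were called, 424 by DESeq2, 325 with no filter, 31 with all 57 libraries and 14 with the 39, and 1 to 48 on leaving out 1 library. With the replicate number as a block the counts were 512 and 32; residuals of D0 and D2 libraries of 1 number correlated at -0.117, -0.0321 and 0.0448, which shows no pairing by number. Between D2 populations they correlated at -0.169 to 0.421, and whether the numbers mark pairs there is open. The cause of these shifts was not tested. The median of all genes moved from 0.11 to 0.00 with no filter and to 0.20 with the block.

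The difference in the mitochondrial share, 2.90 percentage points, turned to -0.183 without D0 replicate 2, within -0.183 to 7.27 on leaving out each library, which was chosen after seeing the data. Fold changes of named genes, over the alternatives, stayed on their side of the threshold in 14752 values, fell short of it in 695 (117 genes) and passed it anew in 289 (138 genes); no called gene changed direction. List medians moved by more than the spread between libraries in 69 of 814 values. At these depths, genes with few counts at D0 have folds known as bounds or wide intervals.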

Other observations

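The table holds 55542 lines, of which 92 name no gene and hold 0 counts. The 13036 genes that lie inside another gene, on either strand, all stand at 0, so no statement can be made on Sox1, Sox2 or the 12 Hox genes among them. Of these, 6463 lie inside a gene of the opposite strand only. Such values would follow if reads were counted over whole gene spans, introns included, and without regard to strand. The authors do not state the counting setting. Genes that overlap another gene in part may be undercounted, which was not tested. Counts of near-identical copies (the Zscan4 and Usp17l families, ribosomal protein genes and mitochondrial genes) are uncertain. The reporter proteins used for the gate were not measured in these data, and no group of the series was in N2B27 without RA at D2, or in SerumLIF with RA.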
